A study of Bos taurus with 8 samples.

Results

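The protamine window is a stretch of 60000 bases on chromosome 25 of the cattle assembly UMD3.1. Its members were chosen by position, as every locus of the deposited table that lies in this stretch, with or without an Ensembl transcript identifier. The rule found 6 loci of the 36801 in the table, and 5 of the 6 carry an identifier. The window itself had been selected from the expression values, because ENSBTAT00000046692, at 9998858 to 9999359, was known to have the highest enrichment in testis among loci with an identifier. Its testis values are therefore given as a description, with no test.

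RNA was measured by RNA-Seq in 8 cattle tissues, to set transcript levels beside DNA methylation in the same organs. The tissues were whole testes, frontal cortex, intercaruncular uterus, mammary parenchyma, abomasum (the glandular stomach), ileum, rumen (the large forestomach) and nucleated blood cells. No treatment is given for any of them. The methylation samples of these tissues came from a Hereford cow and her relatives, and the RNA from a similar collection, so the RNA may be from other animals. The tissue list of the methylation samples names an adult male for the testes, adult females for uterus and blood cells, juvenile females for cortex, mammary gland, abomasum and ileum, and a male fetus for rumen. Each tissue had 1 library, so a difference between tissues has no replicate check and cannot be told apart from differences in animal, age or sex. The levels are FPKM, fragments per kilobase of transcript relative to all mapped fragments of the library, so they are per length. A comparison between short loci depends on the lengths used for them. In a whole organ, fewer cells of a type and less RNA per cell cannot be told apart.

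Protamines are small, arginine-rich proteins that replace the histones in the nuclei of maturing sperm and pack the DNA into a compact, silent form. Transition proteins occupy the DNA between the loss of histones and the arrival of protamines. Their genes are transcribed in haploid spermatids, and the messages are stored before they are translated. In the RefSeq annotation of assembly ARS-UCD2.0, the protein-coding genes of this stretch of chromosome 25 follow each other as CLEC16A, SOCS1, TNP2, PRM3, PRM2, PRM1 and RMI2. TNP2 encodes transition protein 2, and PRM1 and PRM2 are protamine genes. PRM3 is given by its symbol only, and its protein is not counted among the protamines here. SOCS1 encodes a cytokine-induced inhibitor of JAK-STAT signalling, CLEC16A a regulator of mitophagy and RMI2 a part of the complex that resolves DNA recombination intermediates. The table pairs 0 of its identifiers with a RefSeq symbol, so the loci are called by their identifiers here, and no locus was assigned to one of these genes. For the same reason the tissue labels were not checked against marker genes.

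Of the 6 loci, 4 had their highest FPKM in whole testes, where 26.3% of all loci in the table did so at an FPKM of at least 1. The same 4 loci were enriched in testis, meaning that testis exceeded every other tissue at least 5-fold on the scale of FPKM + 1, against 12.7% of all loci. Among loci with an identifier the share enriched in testis was 6.61%. Because the window was chosen from this contrast, the counts only describe it. The 4 loci lie side by side in 10538 bases, from 9988822 to 9999359. The remaining 2 loci share the span from 9974446 to 9976641, and neither was highest in testis.

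ENSBTAT00000046692, the last of the 4 along the chromosome, spans 502 bases. It reached 6333 FPKM in whole testes, and all of frontal cortex, uterus, mammary gland, abomasum, ileum, rumen and nucleated blood cells were listed at 0. Testis was thus the single tissue with a value above 0 at this locus, which held for 60.0% of all loci enriched in testis. In testis ENSBTAT00000046692 ranked 2 among the loci with an identifier, behind a locus of the mitochondrial genome, and 12 among all loci. Of the 1645 loci with an identifier that were enriched in testis, it ranked 1, and the median of those 1645 was 39.4 FPKM. The window was selected for the testis enrichment of this locus, so the rank only describes it.

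The number of reads behind a value was estimated from the spacing of the values at short loci without an identifier, which stand for whole reads. If the transcript filled the whole span, the testis value of ENSBTAT00000046692 rested on about 17551 reads, and the 95% Poisson interval ran from 6240 to 6428 FPKM. Exon lengths are not known, and a shorter transcript would mean fewer reads and a wider interval. The depth used is the smallest that fits and is scaled by the authors' software, so the read numbers are estimates and not bounds. A floor of 3 reads is the one-sided 95% Poisson limit for a count of 0. It corresponded to about 0.718 FPKM in rumen and about 1.85 FPKM in mammary gland, the libraries of largest and smallest estimated depth. Such floors and intervals cover counting error only, not differences between animals. A value listed at 0 therefore does not show that a level under the floor was absent.

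ENSBTAT00000054025, from 9988822 to 9990357, spans 1536 bases and is the first of the 4. Its FPKM was 1292 in whole testes, 38.8 in rumen and 0.294 in uterus. It was listed at 0 in frontal cortex, mammary gland, abomasum, ileum and nucleated blood cells. Testis and rumen stood above all other libraries, and the testis level was 33.3 times the rumen level. In testis the locus ranked 32 among loci with an identifier, and 13 among the 1645 of them enriched there.

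ENSBTAT00000037464, from 9995790 to 9996533, spans 744 bases. Its FPKM was 412 in whole testes and 0.504 in rumen, and the 6 remaining libraries were listed at 0. The rumen value stood for about 4 reads on a transcript as long as the span, with a 95% Poisson interval of 0.142 to 1.34 FPKM. In testis about 2096 reads stood behind the value, and the locus ranked 195 among those with an identifier.

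ENSBTAT00000017347, from 9994132 to 9994413, spans 282 bases, the shortest of the 6. It reached 331 FPKM in whole testes, and every other library was listed at 0. Of the 4 loci, 2 had no value above 0 outside testis, where this held for 60.0% of all loci enriched in testis. About 244 reads stood behind the testis value, and the 95% Poisson interval ran from 291 to 376 FPKM. A span so close to the length of a sequenced fragment leaves few positions for a fragment to start, so its FPKM is the least certain of the 4. The floor of 3 reads was about 2.70 FPKM in rumen and about 6.95 FPKM in mammary gland, several times that of the other members.

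**Figure D1:**
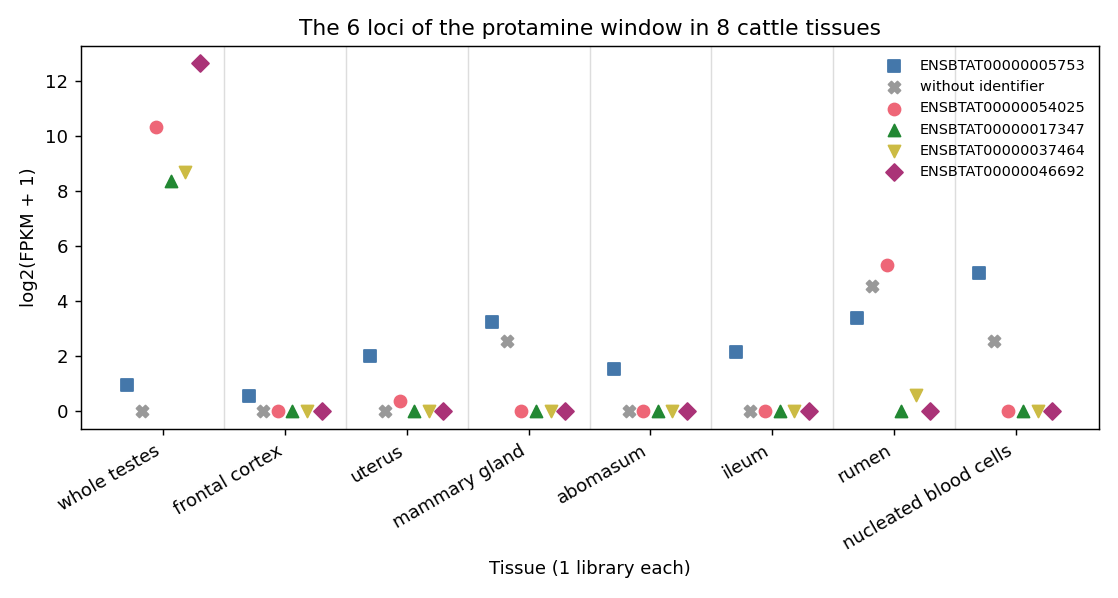
The plot shows log2(FPKM + 1) on the vertical axis for the 6 loci of the window, with the 8 tissues on the horizontal axis and 1 point per library. In whole testes 4 loci stand above all values of the other tissues, with ENSBTAT00000046692 at 6333 FPKM, while ENSBTAT00000054025 is also seen in rumen at 38.8 FPKM.

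Within the testis library, the order of the 4 levels was ENSBTAT00000046692, ENSBTAT00000054025, ENSBTAT00000037464 and ENSBTAT00000017347. The first was 4.90 times the second, the second 3.13 times the third, and the third 1.24 times the fourth. The intervals of the third (395 to 431 FPKM) and of the fourth (291 to 376 FPKM) did not overlap, but they rest on the estimated depth and on a transcript as long as the span. In reads, the first and second were closer than in FPKM, with about 17551 and 16333 reads, so the step between their levels depends on the lengths used for them. The distances between neighbours were 3774 bases, 1376 bases and 2324 bases in the order along the chromosome.

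**Figure D2:**
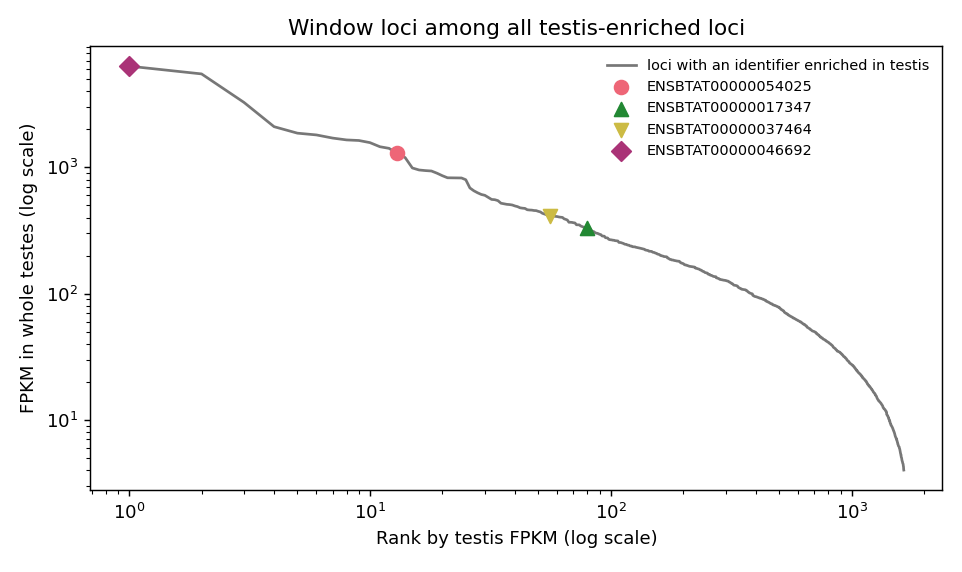
The line plots the FPKM in whole testes of the 1645 loci with an identifier that were enriched in testis, against their rank, both on log scales, and the symbols mark the 4 loci of the window. They stand at ranks 1, 13, 56 and 80. Rank 1 is ENSBTAT00000046692, for which the window was selected.

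In whole testes the 4 loci summed to 8369 FPKM, and the sum over the same loci was 39.3 in rumen, 0.294 in uterus and 0 in the 5 other tissues. ENSBTAT00000046692 alone held 75.7% of the testis sum of the window. The window held 0.736% of the summed FPKM of the testis library, although it contains 6 of 36801 loci.

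The rumen value of ENSBTAT00000054025 was examined further, because it was the single value above 1 FPKM outside testis among the 4 loci. It stood for about 740 reads on a transcript as long as the span. If the uterus value of this locus stood for 1 whole read, the rumen value stood for about 202 reads at the estimated depths, well above the floor of 3. The rumen level was 3.01% of the testis level at this locus and 0.122% at ENSBTAT00000037464, and it was listed at 0 at ENSBTAT00000046692, the member with the highest testis level, and at ENSBTAT00000017347. The 4 loci thus did not keep the ratios they have in testis. Rumen is given as fetal and male in the list of methylation samples, which may not hold for the RNA, and with 1 library the tissue, the age and the sex cannot be told apart.

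Within the rumen library, ENSBTAT00000054025 ranked 3235 of all 36801 loci. Of the 4686 loci enriched in testis, 83.5% were listed at 0 in rumen, and this locus ranked 11 of the 4686 by rumen FPKM. The enrichment rule itself keeps the rumen values of these loci low, so the rank describes them and no more. Of 322 loci with at least 100 FPKM in testis and under 1 FPKM in the 6 tissues other than testis and rumen, 2 (0.621%) had at least 10 FPKM in rumen. The other one was a locus without an identifier on chromosome 6, with 111 FPKM in testis and 22.0 in rumen. Asked of each other tissue in the same way, the count was 7 for abomasum, 5 for frontal cortex, 3 for ileum, 2 each for uterus and mammary gland, and 0 for nucleated blood cells, out of 317 to 339 loci. Rumen was therefore not the tissue with the most such loci. The counts take in loci of every length, with or without an identifier, and were not split by length.

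**Figure D3:**
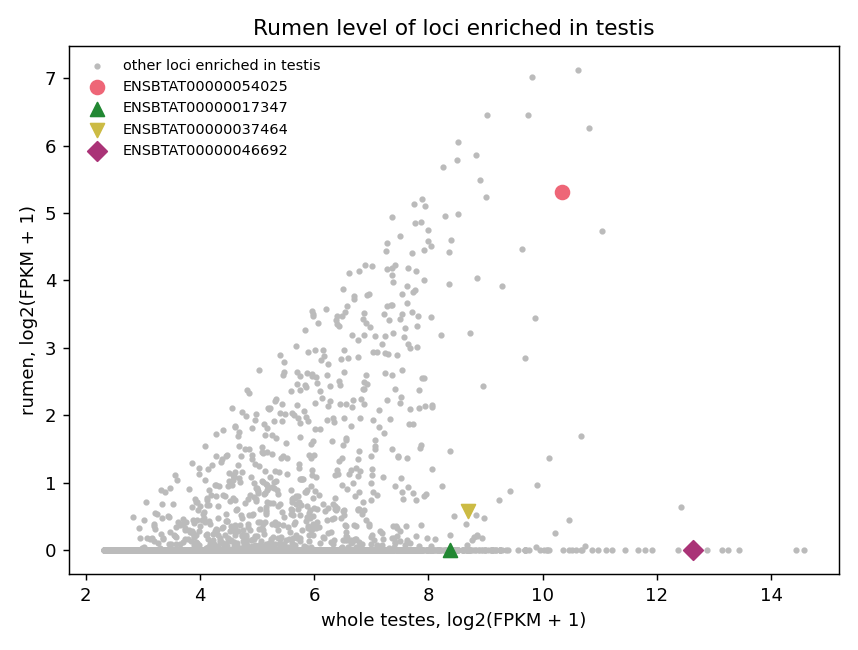
Each point is 1 of the 4686 loci enriched in testis, with log2(FPKM + 1) in whole testes on the horizontal axis and in rumen on the vertical axis. The 4 loci of the window are marked, and ENSBTAT00000054025 lies at 1292 FPKM in testis and 38.8 FPKM in rumen, apart from ENSBTAT00000046692 and ENSBTAT00000017347, which lie on the line of 0 in rumen.

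ENSBTAT00000005753 opens the window and lies 12180 bases before the first of the 4 loci high in testis. Its FPKM was 31.6 in nucleated blood cells, 9.48 in rumen, 8.48 in mammary gland and 3.50 in ileum. It was 3.03 in uterus, 1.93 in abomasum, 0.951 in whole testes and 0.486 in frontal cortex. This locus was detected in all 8 libraries, and its order of tissues was unlike that of the 4 neighbours, with testis next to last.

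The blood level of ENSBTAT00000005753 was 3.33 times the rumen level and 33.2 times the testis level. Of all loci, 10.4% were highest in blood cells at an FPKM of at least 1. By counting error alone, the 95% Poisson intervals of rumen (8.39 to 10.7 FPKM) and mammary gland (6.84 to 10.4 FPKM) overlapped. So did those of ileum (2.56 to 4.61 FPKM) and uterus (2.32 to 3.97 FPKM), and those of testis (0.563 to 1.502 FPKM) and cortex (0.202 to 0.922 FPKM). The interval of abomasum (1.44 to 2.59 FPKM) overlapped those of ileum, uterus and testis, but not that of cortex. Those of ileum and uterus lay above those of testis and cortex. Overlapping intervals do not show that the levels were equal. The interval of blood cells, 29.3 to 34.0 FPKM, lay above all others. These intervals do not cover the division of reads with the locus without an identifier on the same span. That locus had 22.6 FPKM in rumen and 4.87 in blood cells. The lead of blood cells over rumen and the ratio of 3.33 therefore depend on how the reads were divided. About 18 reads in testis and 8 in cortex stood behind the lowest values.

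The locus without an identifier covers the same 2196 bases as ENSBTAT00000005753. Its FPKM was 22.6 in rumen, 4.87 in nucleated blood cells and 4.85 in mammary gland, and the 5 remaining libraries, testis among them, were listed at 0. The rumen level was 4.65 times that of blood cells. Of all loci, 9.03% were highest in rumen at an FPKM of at least 1. The 2 loci that share this span were thus led by different tissues. The libraries were made with a kit that does not keep the strand of the RNA, so reads of overlapping loci cannot be told apart by strand and the division between them is uncertain.

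Outside the window, the nearest locus before it ends 52069 bases away and is the only one that reaches into the 200000 bases on that side. It spans 234719 bases, and its FPKM was 19.8 in whole testes, 17.0 in frontal cortex and 5.28 to 11.2 in the 6 other tissues. Testis was highest there too, but cortex came close and the locus was not enriched. The nearest locus after the window begins 22223 bases beyond it and had 7.30 FPKM in testis, with 16.0 in ileum as the highest value and 4.66 in blood cells as the lowest. The 2 further loci in the 200000 bases after the window had 0.577 and 0.122 FPKM in testis. None of these 4 flanking loci was enriched in testis, so the high testis levels ended within 10538 bases of chromosome 25.

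**Figure D4:**
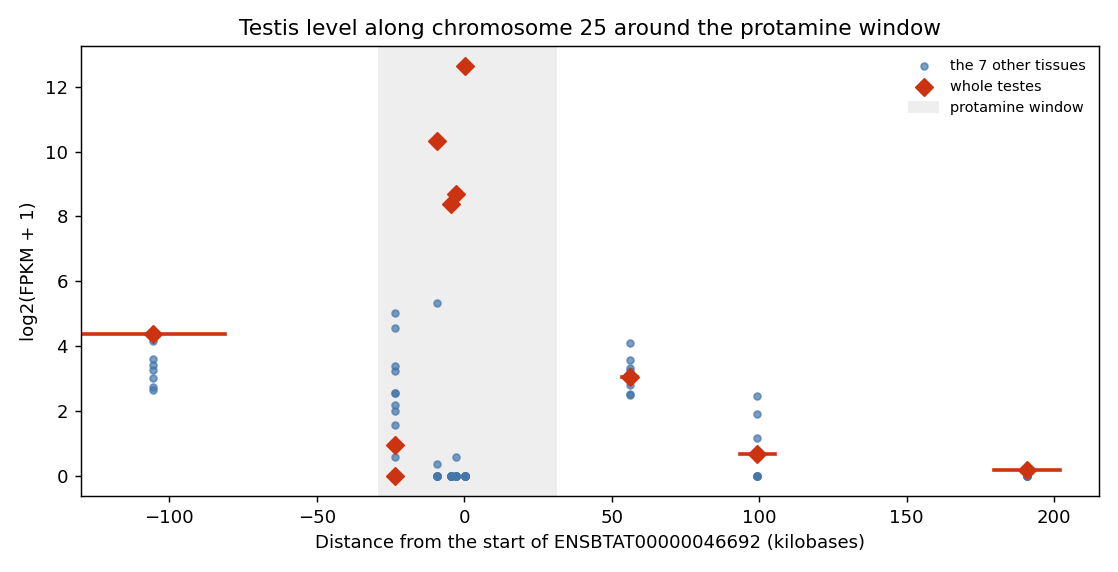
Each locus of the window (grey band) and of the stretches beside it is placed by its distance in kilobases from the start of ENSBTAT00000046692, with log2(FPKM + 1) on the vertical axis, a diamond for whole testes, dots for the 7 other tissues and a horizontal bar for the span. The bar at the left edge continues beyond the plot, and its symbols stand at the middle of the part shown. The 4 loci between 331 and 6333 FPKM in testis stand together, and the flanking loci reach at most 19.8 FPKM there.

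The table was also searched for other places of this kind, a search chosen after the values had been seen. Of 2865 runs of 4 neighbouring loci with an identifier that fit into 60000 bases, 7 consisted of testis-enriched loci throughout. They fell at 4 places, of which the protamine window was one, and the others lay on chromosomes 8 and 13. The lowest testis level in the run of the window was 331 FPKM, whereas in the 6 other runs it was 5.09 to 29.5 FPKM. The highest level in those runs was 1865 FPKM, on chromosome 13. Outside testis, the highest value in the run of the window was 38.8 FPKM, the rumen value of ENSBTAT00000054025, whereas it was 0 to 2.12 FPKM in the 6 other runs. Since the window was chosen for its testis level, this describes where it stands and tests nothing.

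By the distance between profiles of log2(FPKM + 1) over the 8 libraries, the locus with an identifier most like ENSBTAT00000046692 was ENSBTAT00000054670 on chromosome X (29091246 to 29091757), at a distance of 0.954. It reached 3268 FPKM in whole testes, and every other library was listed at 0. The next was a locus on chromosome 13 (61561968 to 61578076) that names ENSBTAT00000039296 and ENSBTAT00000039297, at a distance of 2.01. It had 1649 FPKM in testis and 0.433 in uterus, and the 6 remaining libraries were listed at 0. Closer than both were 8 loci without an identifier, of which 6 spanned up to 130 bases, where few reads give a high FPKM.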

How the data were processed

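The labels placed 1 library in each of 8 tissues, and library names in the table matched the sample titles for all 8. According to the study's methods and the submitters' processing notes, the authors filtered single-end reads, aligned them to UMD3.1 with TopHat2 2.0.13 and compared libraries with Cufflinks at default parameters. The annotation is not given in the sources used here. The deposited FPKM values were scaled between libraries by the authors' software. The layout is that of Cuffdiff, and the FPKM of a locus did not differ between pairs of libraries at any locus. The authors' fold changes, test statistics, p-values and q-values, each from 1 library against 1, were not used. No estimate was marked as failed at the 6 loci of the window.

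Starts were counted from 0 in the table and are given here from 1. Python 3.11.15, pandas 2.3.3 and scipy 1.17.1 were used. Members were taken by position, and a locus was called enriched in testis at an FPKM of at least 1 and a ratio of at least 5 on the FPKM + 1 scale, which understates differences of low loci. Read numbers were recovered at short loci (88 to 130 bases) that carry no identifier. Effective lengths used a normal distribution of fragment lengths (mean 200 bases, SD 80 bases, from 87 bases on), and the depth of a library was the smallest at which 95% or more of its short loci held whole reads, within 0.03. The resulting depth was 6071000 reads in mammary gland to 15611000 in rumen. It is scaled by the authors' software, any multiple of it would also give whole reads, and read numbers at loci with an identifier are approximate. Poisson intervals are at 95%. An FPKM of 0 is reported as listed at 0, since 14 of 3743 widely expressed genes were also at 0 in blood cells, and at most 1 such gene in each other library. Depth recovery and the enrichment call were checked on simulated data. The simulated depths used whole reads at known lengths, so they do not test the read numbers at the loci of the window.

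With 1 library per tissue no test was run. The window, its members and the definitions were chosen with earlier results of these data known. Named loci were the 6 members, the nearest locus on either side, and the 2 loci with an identifier closest in profile. A preset list of spermatid markers was not analysed, because identifiers could not be paired with symbols.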

Additional observations from a re-analysis of the deposited data

How the results depend on the processing

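No paired analysis was possible because there was a single library per tissue. The number of loci highest in testis was 4 under all 5 alternatives tried, and the number enriched in testis was 4 under all 15, which covered the FPKM threshold, the pseudocount, a fold of 2 or 10, identifiers only, a window widened by 20000 bases on either side, upper quartile scaling and each other tissue left out. Several of these could not have lowered the count. The wider window added no locus, and the limit to identifiers removed a locus at 0 in testis. A smaller fold, no threshold or a tissue fewer only loosens the call. The other settings were a threshold of 5 FPKM, a fold of 10, a pseudocount of 0.1 and scaling by factors of 0.828 to 1.191. The lowest testis level of the 4 loci was 331 FPKM and their lowest ratio 32.5, so these settings could not lower it either. The unchanged counts are therefore no check of stability. The share of the testis library in the window was 0.736%, and it stayed within 1.5 times that value, at 0.865% to 1.014% without loci of up to 130 bases, without mitochondrial loci or with identifiers only. Upper quartile scaling, added for the levels after the data had been seen, lowered ENSBTAT00000046692 in testis from 6333 to 5242 FPKM and changed the highest tissue of none of the 6 loci. Depth limits the zeros outside testis, and the unknown transcript lengths and the estimated depth limit the read numbers.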
